A study of Mus musculus with 15 samples.

Results

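The livers described here came from 3 adult germ-free mice given a gut microbiota 4 weeks earlier and from 3 mice that stayed germ-free, all fed chow. They are 6 of the 15 liver libraries of the series and were chosen by the group in the sample names. All mice were C57BL/6J, a common inbred strain, and were dissected at 19 weeks of age. Germ-free (GF) mice were kept without living microorganisms in flexible vinyl isolators. Conventionalized (ConvD) mice were GF males until 15 weeks of age. They then received 1 oral gavage of about 0.2 ml of a suspension of fresh cecal contents from chow-fed, conventionally raised donors. For the following 4 weeks they lived in sealed cages with filter tops. Conventionally raised mice (ConvR, 3 mice), which carried a microbiota from birth, are given beside these groups where they help to place a level. From 3 weeks of age all 3 groups ate the same breeder chow, sterilized by irradiation and autoclaving. The labels state the sex only for the gavaged mice, and Ddx3y, a gene of the Y chromosome, was read at 39.1 to 61.1 CPM (counts scaled to the library total) in all 9 chow libraries. Mice were housed by colonization status, so that cage or isolator and colonization cannot be told apart, and the ConvD mice alone had been gavaged and moved.

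The liver receives the blood that leaves the gut, and with it microbial products, bile acids that bacteria have altered, and nutrients that bacteria have released or consumed. Among the best known routes are the nuclear receptors PXR and FXR, which bind foreign compounds and bile acids and control detoxifying and bile acid genes. Others are the SREBP proteins, which switch on cholesterol and fatty acid synthesis, and the Toll-like receptors, which sense microbial molecules and start inflammatory signalling. Conventionalization of an adult GF mouse asks how liver transcript levels differ from the GF level once a microbiota has been present for weeks.

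Estimated counts totalled 14737578 to 21219381 in GF and 17607907 to 21794811 in ConvD libraries. A total of 12377 genes passed the filter on low counts. With edgeR's quasi-likelihood test and Benjamini-Hochberg adjustment, 692 of them (5.59%) differed between ConvD and GF livers at an adjusted p below 0.05, here termed called. Of these, 278 (2.25%) were higher and 414 (3.34%) lower in ConvD mice, and 22 and 66 of them differed by at least 2-fold. These shares over all genes are to be set beside the counts of each gene list below. Counts scaled by TMM, the default used throughout, gave 40.2% of calls as higher. That share was 63.7% without normalization factors and 88.5% on TPM as deposited, so that the balance of rises and falls depends on the scale. The test drew its estimate of spread from all 15 libraries of the series. These include GF and ConvR mice on another diet, named HFHS in the sample titles. Fitted on the 9 chow libraries the test called 39 genes, 15 higher and 24 lower. Fitted on the 6 libraries alone it called 11 genes, 3 higher and 8 lower, and of the genes named below Cyp3a11, Csad, Plin4, Cyp2c40, Cyp2c70, Lss, Insig1, Cry2 and Cela1 were among them. The CPM ranges of the groups did not overlap for 1732 genes that were higher (14.0%) and 1827 that were lower (14.8%).

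Gene length moved with the groups. Expression of each library was taken relative to the mean of all 15 libraries, HFHS included, and ranked against gene length. The correlation was -0.192, -0.262 and -0.451 for GF 1, 2 and 3 and 0.286, 0.148 and 0.124 for ConvD 1, 2 and 3. The median length of called genes was 4480 bases for those higher in ConvD livers and 1388 bases for those lower, against 2813 bases for genes not called. With a length trend removed from each library, 120 genes (0.970%) were called higher and 167 (1.35%) lower. GF 1 also stood apart from the other 2 GF libraries, with a weight of 0.202 in limma's sample weighting against 1.274 and 0.762. Without it 156 genes were called higher (1.24%) and 205 lower (1.64%), and with both changes 59 (0.471%) and 98 (0.782%). For many gene groups below, counts or values under these settings stand beside the main ones. What part length or GF 1 had in a result was not tested beyond these values.

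**Figure D1:**
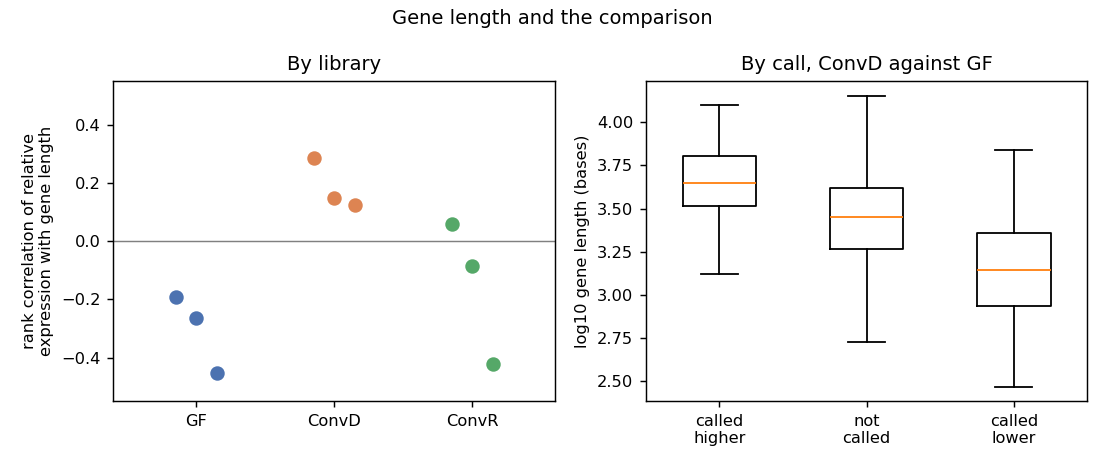
Left, correlation by rank between gene length and relative expression per library in the GF, ConvD and ConvR groups on chow, 1 point per library; the 3 ConvD points lie above 0 and the 3 GF points below. Right, log10 gene length of genes called higher (278), not called and called lower (414) in ConvD against GF livers, as boxes of median and quartiles with whiskers to 1.5 times the interquartile range.

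Among called genes Cyp3a11 had the largest increase. This enzyme, the main mouse liver P450 of the 3A family and a classical PXR target, was read at 355, 380.5 and 762 CPM in GF livers and at 5252, 4955 and 4766 CPM in ConvD livers. The lowest ConvD library was far above the highest GF library, and the 3 ConvD livers lay close to each other. The log2 fold change was 3.32 ± 0.35 (standard error; adjusted p = 0.00182), and the call held whichever of the 6 libraries was left out (adjusted p up to 0.00982) and with the length trend removed (3.37). ConvR livers held 1505, 1941 and 3679.9 CPM, below all ConvD livers, although the ConvD against ConvR difference of 1.07 was not called (adjusted p = 0.0643). Cyp3a59, a close relative, rose from 15.7, 11.5 and 19.1 CPM to 37.8, 30.2 and 37.8 CPM (log2 fold change 1.19 ± 0.27, adjusted p = 0.0264). Its call was lost without GF 1, without GF 2 and without any 1 of the ConvD libraries, with adjusted p up to 0.0933. RSEM divides reads between near-identical genes, so that the split within the Cyp3a family is uncertain.

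In the list of the Cyp3a family with PXR and its partners, 2 of 7 tested members rose, where 2.25% of all genes did, and 0 fell. The median log2 fold change was 0.177 against -0.008 over all genes. The receptor gene was not called. Nr1i2, which encodes PXR, stood at 82.9, 55.8 and 60.2 CPM in GF and 64.3, 68.7 and 62.1 CPM in ConvD livers (log2 fold change -0.03, 95% interval -0.35 to 0.30). Rxra, its dimer partner, had a log2 fold change of 0.06 (-0.15 to 0.27). Cyp3a25 stood at 349, 357 and 476 against 598, 546 and 615 CPM without overlap, but was not called (0.57 ± 0.17, adjusted p = 0.0613). Cyp3a13, which the intestine also expresses, had a log2 fold change of 0.18 (adjusted p = 0.582).

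The receptor CAR and the drug oxidases of the Cyp2 families held calls both ways. Of 27 tested genes 1 rose and 3 fell (0 and 3 without GF 1, 0 and 2 with the length trend removed), and the median was -0.04 (0.12 on TPM). Cyp2c40 fell from 62.8, 27.8 and 31.9 CPM to 5.86, 4.43 and 3.05 CPM (log2 fold change -3.19 ± 0.38, adjusted p = 0.00298). Its relative Cyp2c69 fell from 15.7, 9.66 and 5.85 CPM to 2.53, 0.949 and 1.22 CPM (-2.73 ± 0.47, adjusted p = 0.00878). Both are known as more abundant in female liver, and both were called whichever library was left out. They were the 2 called members of 11 tested female-biased genes, a list whose median was 0.54. ConvR livers held intermediate Cyp2c40 levels of 17.0, 17.5 and 7.18 CPM, and ConvD were lower than ConvR livers as well (-1.64, adjusted p = 0.0294).

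Cyp2c70, which hydroxylates bile acids to muricholic acids in mice, fell from 774, 720.2 and 866 CPM to 434, 369 and 424 CPM (-0.94 ± 0.23, adjusted p = 0.0327). The groups were well separated, yet the call was lost without GF 1, without GF 3, without any 1 of the ConvD libraries (adjusted p up to 0.118) and with the length trend removed (adjusted p = 0.0679). Cyp2c38 rose from 6.06, 15.8 and 14.7 CPM to 31.6, 26.5 and 23.2 CPM (1.14 ± 0.29, adjusted p = 0.0365), a call lost without GF 1, without any 1 of the ConvD libraries (up to 0.122) and with the length trend removed (0.0556). Cyp2b10, the usual readout of CAR, stood at 3.72, 3.03 and 14.4 against 16.2, 21.4 and 13.7 CPM and was not called (adjusted p = 0.189). Nr1i3, the gene of CAR, had a log2 fold change of -0.44 (adjusted p = 0.0767). Reads shared among Cyp2c paralogs make these values uncertain too.

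The other detoxification lists held no call. None of 7 tested genes of the aryl hydrocarbon receptor list, which holds the receptor as well as its targets, passed the test, with Cyp1a2 at -0.31 (adjusted p = 0.19) and Cyp1a1 at 0.33 (adjusted p = 0.436). Among 33 conjugation genes of the UGT, sulfotransferase and GST families 0 were called, at a median of 0.148. Ugt1a9 came near the threshold, at 25.7, 28.8 and 26.8 against 67.0, 49.3 and 49.9 CPM (1.03 ± 0.30, adjusted p = 0.0565). Neither 14 NRF2 redox genes nor 12 carboxylesterases held a call, and Ces1c stood at 2130.3, 2498 and 2404 against 2429, 2404 and 2217 CPM.

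**Figure D2:**
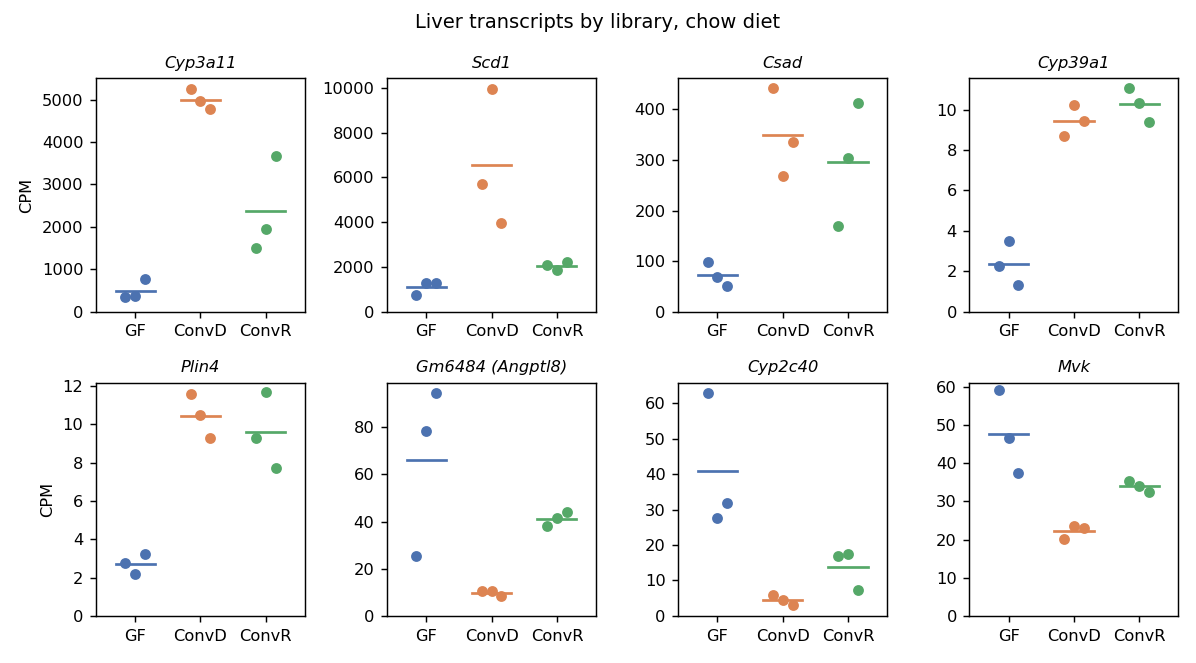
CPM of 8 genes in the 3 libraries of each chow group (points, replicates 1 to 3 from left to right) with the group mean (bar); each vertical axis is linear and starts at 0. Cyp3a11, Scd1, Csad, Cyp39a1 and Plin4 were higher in every ConvD than in every GF library, and Gm6484, Cyp2c40 and Mvk lower.

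Bile acid genes changed at few steps. Bile acids are made from cholesterol, joined in mice mainly to taurine, and returned from the gut after bacteria have altered them. Cyp7a1, the rate-limiting enzyme of the classical route, stood at 20.03, 37.6 and 39.6 CPM in GF and 42.5, 51.5 and 66.0 CPM in ConvD livers. The groups did not overlap, but the difference was not called (log2 fold change 0.71 ± 0.29, adjusted p = 0.154). Cyp39a1, the 24-hydroxycholesterol hydroxylase, was the clear exception, at 2.27, 3.48 and 1.31 against 8.71, 10.2 and 9.43 CPM (2.02 ± 0.23, adjusted p = 0.00298). ConvR livers held 11.1, 10.3 and 9.41 CPM (ConvD against ConvR -0.12, adjusted p = 0.765), and the call held whichever library was left out. With Cyp2c70 as the member that fell, 1 of 16 tested synthesis genes rose and 1 fell.

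Among 16 genes of bile acid transport and FXR signalling 0 were called, and without GF 1 Nr0b2 alone was called lower. Nr0b2, the FXR-induced repressor SHP, stood at 25.3, 53.8 and 59.95 against 21.7, 30.7 and 27.2 CPM (-0.81 ± 0.27, adjusted p = 0.0857), with GF 1 inside the ConvD range, and without GF 1 it had a log2 fold change of -1.09 (adjusted p = 0.0193). Nr1h4, the gene of FXR, had a log2 fold change of 0.04 (adjusted p = 0.893). Slc10a1, the main uptake carrier of conjugated bile acids, stood at 221, 489 and 455 against 507, 641 and 528 CPM (0.53, adjusted p = 0.162).

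Csad, the decarboxylase that leads to taurine, rose from 98.1, 67.8 and 50.1 CPM to 442, 268 and 337 CPM (2.28 ± 0.35, adjusted p = 0.0063). Every ConvD liver held more than every GF liver, and ConvR livers, at 169, 305 and 412 CPM, reached the same range (0.24 between ConvD and ConvR, adjusted p = 0.702). The call held whichever library was left out (adjusted p up to 0.0387). Csad was the only member called of 5 taurine genes. Cdo1, which supplies its substrate, stood at 1096, 1105 and 999 against 852, 989.9 and 1036 CPM (-0.15, adjusted p = 0.397), and the taurine carrier Slc6a6 had a log2 fold change of 0.25 (adjusted p = 0.463).

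The tested cholesterol synthesis genes lay lower in ConvD livers along the pathway, although most were not called. Hmgcs1, a listed member before squalene, had no matching symbol and was not tested. All 9 tested genes from acetyl-CoA to squalene and all 11 from squalene to cholesterol had negative log2 fold changes, with medians of -0.68 and -0.40 against -0.008 over all genes. CPM ranges lay apart, lower in ConvD livers, for 7 of the 9 and 9 of the 11, beside 14.8% of all genes. In each list 2 members fell and 0 rose, beside 3.34% of all genes called lower. The medians stood at -0.68 and -0.38 with the length trend removed and -0.56 and -0.48 without GF 1. They were -0.52 and -0.26 on TPM, where the median of all genes was 0.097.

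Before squalene, Mvk, the mevalonate kinase, fell from 59.2, 46.7 and 37.4 CPM to 20.2, 23.7 and 23.1 CPM (-1.09 ± 0.17, adjusted p = 0.0063). It was called whichever library was left out, and ConvR livers lay between the groups at 35.4, 34.2 and 32.4 CPM. Fdft1, the squalene synthase, fell from 182, 204 and 209.6 CPM to 124, 121 and 128 CPM (-0.68 ± 0.18, adjusted p = 0.0456), a call lost on leaving out any 1 of the 6 libraries (adjusted p up to 0.131). Mvd, the mevalonate diphosphate decarboxylase, came just short at 31.9, 34.0 and 32.0 against 13.6, 17.1 and 20.1 CPM (-0.95 ± 0.27, adjusted p = 0.0521), as did Fdps, the farnesyl diphosphate synthase (-0.93 ± 0.27, adjusted p = 0.058).

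After squalene, Lss, the lanosterol synthase, fell from 99.5, 87.0 and 79.2 CPM to 43.5, 44.7 and 44.3 CPM (-1.002 ± 0.18, adjusted p = 0.00954). Its call was lost only without ConvD 1 (adjusted p = 0.0524). Sc4mol, the sterol methyl oxidase now named Msmo1, fell from 234, 283 and 322 CPM to 178, 161 and 186 CPM (-0.68 ± 0.18, adjusted p = 0.0476). That call was lost in each leave-one-out fit except that without GF 1 (up to 0.153) and with the length trend removed (0.0945). Sqle, the squalene epoxidase, stood at 117, 114 and 100.3 against 64.2, 57.9 and 68.9 CPM and was not called (-0.79 ± 0.35, adjusted p = 0.185).

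Of 14 genes that control the pathway or take up LDL, Insig1 was the only one called. Insig1 holds the SREBP complex in the endoplasmic reticulum and is itself an SREBP target. It fell from 442, 482 and 439 CPM to 277, 266 and 279.7 CPM (-0.73 ± 0.15, adjusted p = 0.0198), and lost its call without any 1 of the ConvD libraries (adjusted p up to 0.0787). Srebf2, the gene of the factor that drives cholesterol synthesis, stood at 73.0, 59.9 and 59.3 against 49.8, 50.3 and 51.2 CPM (-0.34, adjusted p = 0.0637).

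**Figure D3:**
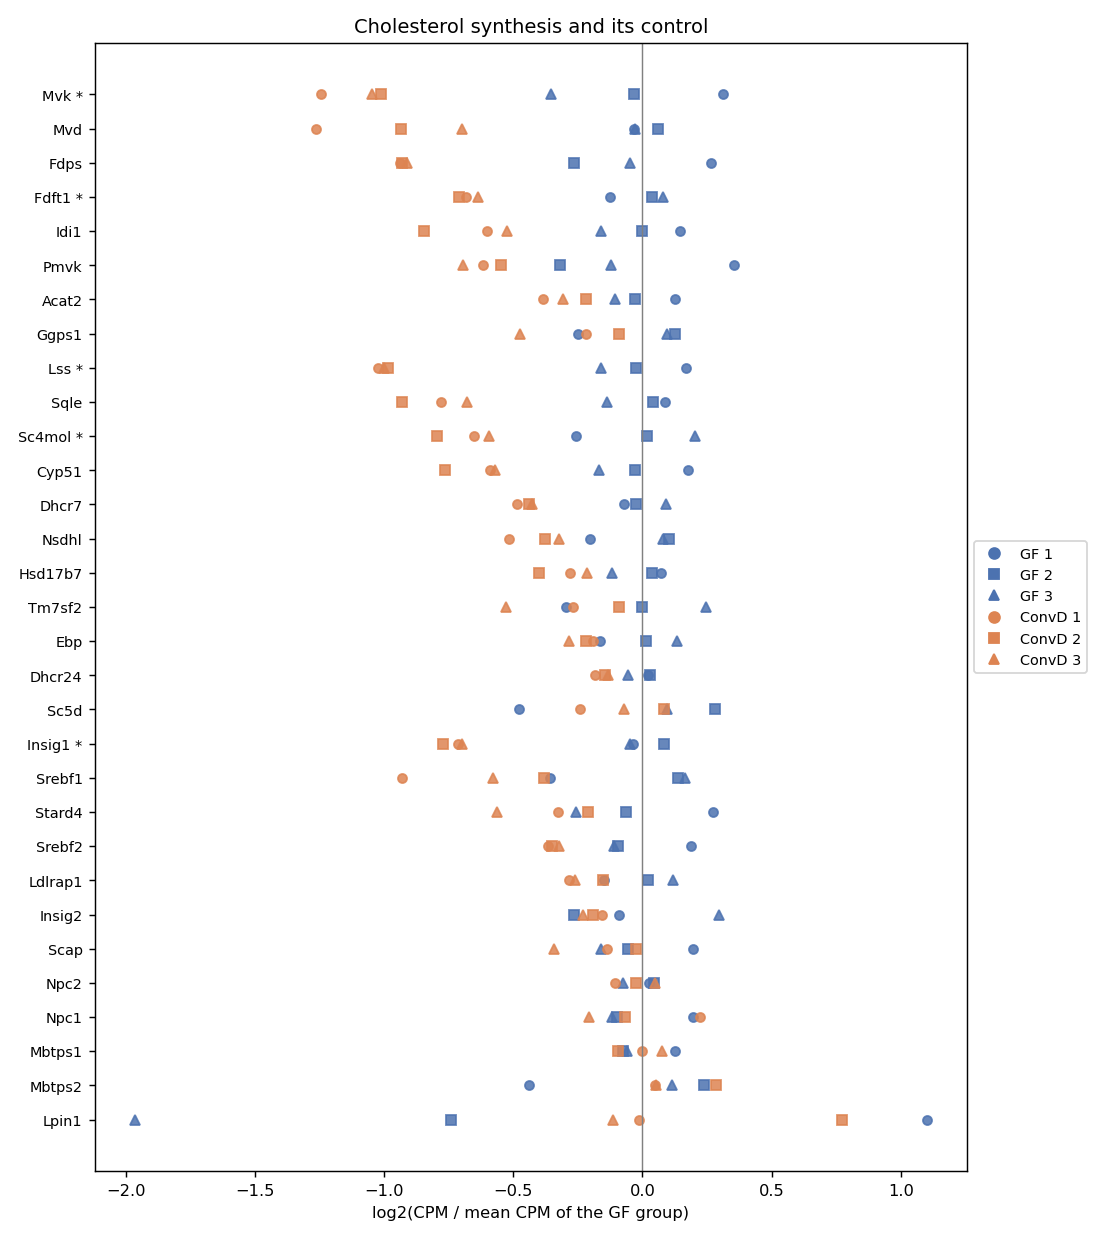
log2 of CPM over the mean CPM of the GF group for genes of 3 lists, from the top 8 to squalene, 11 from squalene to cholesterol and 12 of SREBP control and LDL uptake, each sorted by log2 fold change; symbols mark the 6 libraries and an asterisk a called gene. All ConvD symbols lie left of all GF symbols for 7 of the first 8 genes and 9 of the next 11. Over all genes tested, 14.8% lay lower without overlap.

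Because called members of these lists lay lower together, their promoters are shown, from RefSeq on the GRCm38.p6 build, as 250 bases before to 50 after the annotated start, with CCAAT, the box bound by NF-Y, in capitals in either orientation. The build differs from the mm9 build of the counts, and no count was read by these coordinates. NF-Y is known as a partner of SREBP at sterol-regulated promoters. Fdft1 had no entry.
Mvk, chr5:114444019-114444318, + strand: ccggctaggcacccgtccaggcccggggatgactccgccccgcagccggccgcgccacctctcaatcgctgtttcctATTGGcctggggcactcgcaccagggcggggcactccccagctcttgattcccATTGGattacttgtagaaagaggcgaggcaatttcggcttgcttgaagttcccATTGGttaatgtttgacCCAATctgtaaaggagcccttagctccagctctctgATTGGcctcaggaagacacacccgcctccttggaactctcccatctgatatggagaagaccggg
Lss, chr10:76531355-76531654, + strand: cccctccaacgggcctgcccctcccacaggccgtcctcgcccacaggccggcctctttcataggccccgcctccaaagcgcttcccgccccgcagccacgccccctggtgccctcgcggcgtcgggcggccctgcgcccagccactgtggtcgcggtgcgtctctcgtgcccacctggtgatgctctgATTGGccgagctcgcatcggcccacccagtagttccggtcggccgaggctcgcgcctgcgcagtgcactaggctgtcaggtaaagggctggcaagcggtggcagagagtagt
Sc4mol (Msmo1), chr8:64733529-64733828, - strand: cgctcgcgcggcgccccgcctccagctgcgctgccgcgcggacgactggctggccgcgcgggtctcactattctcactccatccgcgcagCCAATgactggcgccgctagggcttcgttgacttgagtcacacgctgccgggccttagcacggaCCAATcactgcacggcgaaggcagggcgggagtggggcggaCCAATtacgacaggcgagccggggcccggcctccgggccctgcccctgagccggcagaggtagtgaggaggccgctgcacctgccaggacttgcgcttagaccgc
Insig1, chr5:28071162-28071461, + strand: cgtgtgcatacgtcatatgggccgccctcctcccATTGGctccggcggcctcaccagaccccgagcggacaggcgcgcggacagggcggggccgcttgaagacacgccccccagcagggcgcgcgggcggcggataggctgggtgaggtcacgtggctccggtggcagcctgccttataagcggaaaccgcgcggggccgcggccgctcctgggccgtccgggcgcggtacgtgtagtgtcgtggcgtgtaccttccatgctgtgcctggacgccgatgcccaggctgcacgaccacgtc
CCAAT was present in all 4 promoters, 1 time each in Lss and Insig1, 3 times in Sc4mol and 5 times in Mvk. It was present for 19 of 24 members of the 3 lists that had a promoter (79.2%), against 3856 of 8910 tested genes matched by symbol (43.3%). The sterol regulatory element core TCACCCCA was in 0 of the 4, in 1 of the 24 (Srebf2) and in 1.8% of the 8910, exact matches on both strands. A match here is a description of the letters and not evidence of binding.

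The lists of fatty acid synthesis and lipid storage held 1 or 2 calls each, all higher, where 2.25% of all genes were called higher. Scd1, the stearoyl-CoA desaturase that makes monounsaturated fatty acids, rose from 729, 1273 and 1289 CPM to 5683, 9953 and 3962 CPM (2.57 ± 0.41, adjusted p = 0.0063). All ConvD livers held more than any GF or ConvR liver (2076, 1849.9 and 2211 CPM in ConvR), and ConvD also exceeded ConvR livers (1.68, adjusted p = 0.0306). ConvD 2 held the most, and the call held whichever library was left out (adjusted p up to 0.0319). Pklr, the liver pyruvate kinase and a ChREBP target, rose from 84.2, 106 and 111 CPM to 192, 269 and 148 CPM (1.01 ± 0.22, adjusted p = 0.0207). It was also higher than in ConvR livers (0.97, adjusted p = 0.0244), but was not called without GF 1, ConvD 1 or ConvD 2 (up to 0.0888).

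Scd1 was the only call of 13 desaturases and elongases, at a list median of 0.197. Fasn, the fatty acid synthase, stood at 379, 375 and 303 against 306, 494 and 345 CPM (0.12 ± 0.24, 95% interval -0.42 to 0.65). Among 11 lipogenesis genes 1 was called, Pklr, at a list median of 0.283. Elovl5, an elongase, came near the threshold at 115, 239 and 239.8 against 377, 485 and 306 CPM (0.97 ± 0.29, adjusted p = 0.0604). Srebf1, the gene of the SREBP that drives lipogenesis, lay lower without overlap and was not called (208, 293 and 299 against 139.9, 205 and 178 CPM, adjusted p = 0.22).

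The lipid droplet list held 2 calls among 15 tested genes, both higher, at a median of 0.285. With the length trend removed 3 rose at a median of 0.466, and without GF 1 1 rose at 0.352. With both changes 0 were called, at a median of 0.36. Plin4, a droplet coat protein, rose from 2.75, 2.17 and 3.24 CPM to 11.6, 10.5 and 9.26 CPM (1.93 ± 0.34, adjusted p = 0.00954). Its call held whichever library was left out (adjusted p up to 0.0463) but not with both changes together. ConvR livers held 9.29, 11.7 and 7.72 CPM, overlapping the ConvD range. Plin5, which tethers droplets to mitochondria, rose from 33.5, 30.3 and 38.4 CPM to 49.0, 50.8 and 49.7 CPM (0.55 ± 0.13, adjusted p = 0.033), a call held only without GF 3 among the leave-one-out fits (up to 0.101). Plin2, the most general droplet marker, was not called (0.26, adjusted p = 0.339), nor was Cd36, the fatty acid carrier, at 32.4, 44.7 and 62.0 against 63.6, 82.1 and 70.9 CPM (0.64, adjusted p = 0.193).

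Among 24 genes of triglyceride synthesis, lipolysis and lipoproteins the single call was a fall, beside which 1 gene was called higher without GF 1. Gm6484, the older name of Angptl8, encodes a feeding-induced inhibitor of lipoprotein lipase and stood at 25.2, 78.2 and 94.6 CPM in GF livers. It stood at 10.7, 10.4 and 8.32 CPM in ConvD livers (-2.75 ± 0.37, adjusted p = 0.00387), below each of the ConvR livers (38.2, 41.7 and 43.8 CPM, a log2 difference of -2.07, adjusted p = 0.0109). The call held whichever library was left out (up to 0.0294). Angptl4, a fasting-induced inhibitor of the same lipase, stood at 144, 50.7 and 48.7 against 173, 180.3 and 164 CPM and was not called (1.09 ± 0.37, adjusted p = 0.0902), although it was the gene called higher without GF 1 (1.80, adjusted p = 0.011). None of 37 PPAR alpha, fatty acid oxidation and ketogenesis genes was called, at a median of 0.114.

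Glucose metabolism held 1 call. Gpi1, the glucose-6-phosphate isomerase, rose from 118, 115 and 106 CPM to 157, 152 and 136 CPM (0.39 ± 0.10, adjusted p = 0.0381), the only call of 20 glycolysis, fructose and glycogen genes. It was lost on leaving out any 1 of the 6 libraries (up to 0.136). Without GF 1 the only call of that list was Ppp1r3c, a glycogen-targeting phosphatase subunit, lower at -1.20 (adjusted p = 0.0387). None of 12 gluconeogenesis genes was called, and with the length trend removed Fbp1, a fructose bisphosphatase, was called higher (0.51, adjusted p = 0.0461). G6pc, the last enzyme of glucose release, stood at 1264, 561 and 351 against 615, 843 and 812 CPM (0.06, adjusted p = 0.942), with ConvD livers inside the GF range.

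Immediate early genes are transcribed within minutes of a stimulus and code mostly for transcription factors. They held the largest falls of the genes named in this text, with Fosb, Fos and Egr2 lowest. Over all tested genes the lowest log2 fold change was -10.96, in the cytosolic ribosomal protein list. All 22 tested immediate early genes had negative log2 fold changes, at a median of -1.80 (-1.08 on TPM). Of them 10 were called lower, beside 3.34% of all genes. Fos stood at 129, 28.9 and 5.95 CPM in GF livers and 1.505, 0.587 and 0.444 CPM in ConvD livers (-6.01 ± 1.00, adjusted p = 0.00783). Egr1 stood at 302, 109 and 54.2 against 16.9, 4.29 and 6.32 CPM (-4.09 ± 0.59, adjusted p = 0.00602). Ier2 stood at 113, 33.0 and 31.3 against 11.9, 8.99 and 8.15 CPM (-2.60 ± 0.39, adjusted p = 0.0063). The GF libraries spread far more than the ConvD libraries, with GF 1 highest for every gene named here.

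Without GF 1 the list median was -0.61 and 6 members were called lower. Fosb, Fos, Egr1, Ier2, Atf3 and Btg2 were called without it, Fosb at -5.94 (-7.44 with it), Fos at -4.36, Egr1 at -3.16, Ier2 at -1.72, Atf3 at -2.13 (-4.06 with it) and Btg2 at -2.46 (-3.82). Nr4a1 (159, 38.6 and 9.09 against 6.23, 2.39 and 2.16 CPM) was not called without GF 1 (-2.72, adjusted p = 0.0547), nor was Junb (-1.74, adjusted p = 0.137). Jun was not called with all libraries, at 226, 43.8 and 18.1 against 38.3, 12.9 and 10.9 CPM (adjusted p = 0.0876). Calls of Fosb, Fos, Egr1 and Ier2 also held without any 1 of the other 5 libraries (adjusted p up to 0.0463). None of these genes was called with the 6 libraries alone. Fosb, Fos and Ier2 were also lost with the 9 chow libraries, and Fosb and Fos with limma's voom method. Single ConvD libraries moved the fold changes too, Fosb to -9.46 without ConvD 3 and Fos to -6.68, Egr1 to -4.88 and Nr4a1 to -4.90 without ConvD 1. Atf3, Btg2, Nr4a1, Junb and Egr2 lost their calls without any 1 of the ConvD libraries (up to 0.115), Egr2 and Cyr61 without GF 1 (0.102 and 0.0602), and Cyr61 without ConvD 1 or 2. Egr2 moved most, from -4.97 to -3.80 without GF 1 and -9.03 without ConvD 3. Junb was not called with the length trend removed either (0.0532). ConvR livers were also low in Fos, at 2.91, 1.45 and 0.302 CPM, and Egr1, at 10.2, 9.64 and 5.31 CPM.

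**Figure D4:**
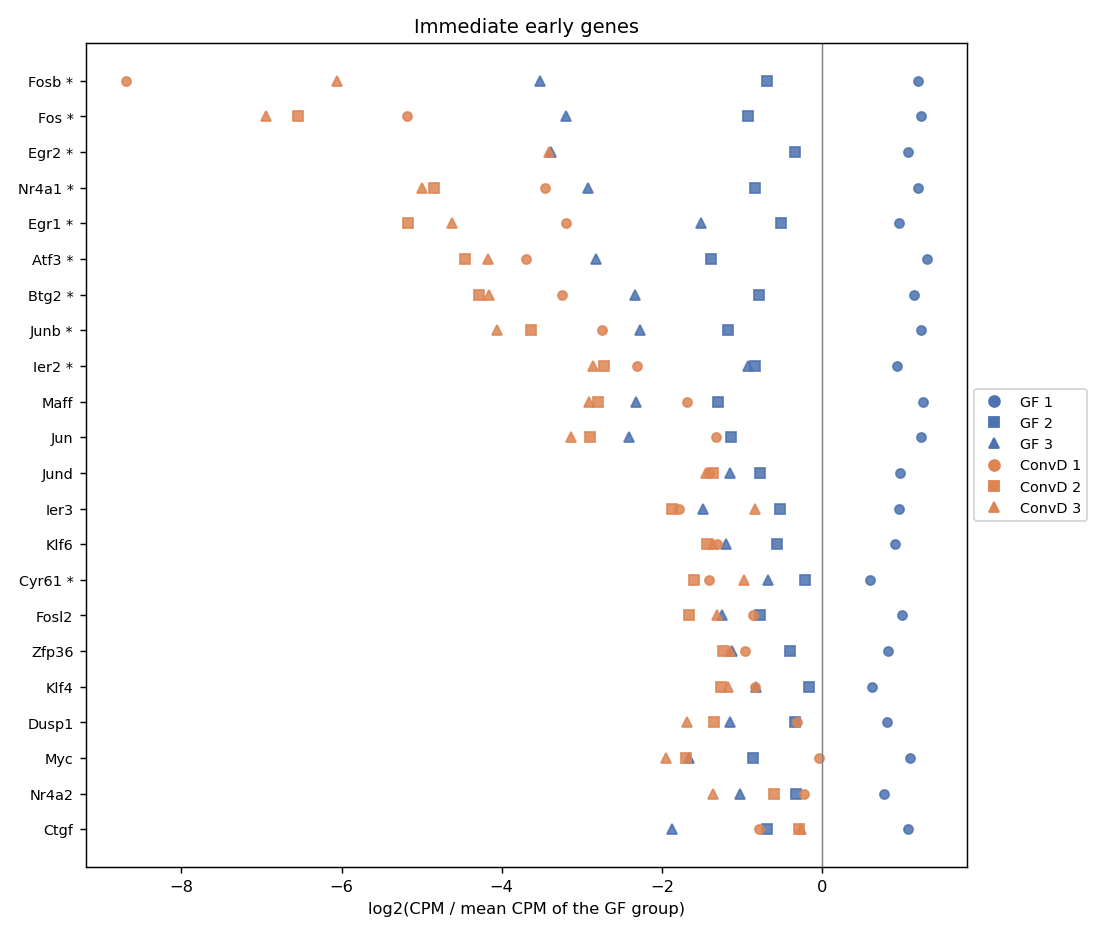
log2 of CPM over the mean CPM of the GF group for the 22 tested immediate early genes, sorted by log2 fold change; symbols mark the 6 libraries, an asterisk marks a called gene, and libraries at 0 CPM (ConvD 2 for Fosb, ConvD 1 and 2 for Egr2) have no symbol. GF 1 lies right of all other libraries in each gene, and GF 3 is the lowest GF library in each.

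Some genes outside the list showed the same order of GF libraries. Thbs1, thrombospondin, stood at 30.4, 8.23 and 1.74 against 1.24, 0.949 and 1.22 CPM (-3.54 ± 0.83, adjusted p = 0.0283). Its call was lost without GF 1 (-2.11, adjusted p = 0.112) and without any 1 of the ConvD libraries (up to 0.107). The MAP kinase phosphatase Dusp6, singled out after its values were seen, fell from 180.2, 81.9 and 58.9 CPM to 24.3, 27.6 and 29.4 CPM (-1.98 ± 0.31, adjusted p = 0.0063). Its call held whichever library was left out (adjusted p up to 0.044), at -1.37 without GF 1. Dusp6 was not called with the 6 libraries alone or with the 9 chow libraries.

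Stress response genes called with all libraries were all lower. Of 22 genes of the integrated stress response 0 rose and 3 fell, where 3.34% of all genes were called lower. The list median was -0.21 (-0.07 without GF 1). Atf4, its central factor, fell from 170.1, 124 and 117 CPM to 98.2, 75.6 and 87.7 CPM (-0.65 ± 0.16, adjusted p = 0.0363). Asns, the asparagine synthetase, fell from 2.68, 4.68 and 7.69 CPM to 1.72, 0.723 and 1.94 CPM (-1.82 ± 0.46, adjusted p = 0.036). ConvR livers held far more Asns, 20.1, 21.6 and 10.1 CPM (-3.58 for ConvD against ConvR, adjusted p = 0.00198). Atf5, a related factor, fell by 0.54 on the log2 scale (adjusted p = 0.0295). None of these 3 calls held in every leave-one-out fit (adjusted p up to 0.135, each lost without any 1 of the ConvD libraries) or with the length trend removed (0.0534 to 0.0689). Atf4 and Atf5 were lost without GF 1 as well, and Asns and Atf5 without GF 3. Trib3, an ATF4 target, lay lower in each ConvD library without a call (-0.98, adjusted p = 0.0563).

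Among 21 chaperones and XBP1 genes of the endoplasmic reticulum Sdf2l1 alone was called, falling from 95.3, 45.4 and 45.8 CPM to 23.8, 18.3 and 34.0 CPM (-1.29 ± 0.29, adjusted p = 0.0238). Without GF 1 it stood at -0.84 (adjusted p = 0.0684), and without ConvD 1 or 2 the call was lost too, as it was with the length trend removed (0.0554). Hspa5, the chaperone BiP, held 2102 CPM in GF 1 and 1096 and 819 in GF 2 and 3, against 897, 877 and 1010.1 CPM in ConvD livers (adjusted p = 0.22). Without GF 1 Herpud1 was the only call of the list, higher at 1.02 (adjusted p = 0.0298). None of 14 heat shock genes was called, and without GF 1 Bag3, a co-chaperone of HSP70, was called higher (0.71, adjusted p = 0.0259). Their median was -0.15 with GF 1 and 0.27 without it.

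Amino acid and one-carbon genes had isolated calls. Dmgdh, the mitochondrial dimethylglycine dehydrogenase of choline breakdown, fell from 932, 809 and 873 CPM to 542, 596 and 529 CPM (-0.65 ± 0.11, adjusted p = 0.00954), the only call of 12 methionine cycle genes. Among the leave-one-out fits the call was lost only without ConvD 1 (adjusted p = 0.0524). Dmgdh was also not called with the 6 libraries alone or with the 9 chow libraries. Bhmt, the enzyme just before it, stood at 6222, 5426 and 8699 against 3750.4, 4566 and 3697 CPM without overlap or call (-0.76, adjusted p = 0.0813). ConvR livers held still less Dmgdh, 381, 362 and 455 CPM (0.48 for ConvD against ConvR, adjusted p = 0.0316).

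Of 35 urea cycle and amino acid breakdown genes 1 rose and 2 fell, beside 2.25% and 3.34% of all genes. Agxt, which turns glyoxylate into glycine, fell from 585, 366 and 303 CPM to 231, 259 and 215 CPM (-0.83 ± 0.21, adjusted p = 0.0365), and stood at -0.50 without GF 1 (adjusted p = 0.117). Agxt2 fell from 175, 162 and 178 CPM to 116, 127 and 121 CPM (-0.50 ± 0.13, adjusted p = 0.0372). Uroc1, the urocanase of histidine breakdown, rose from 312, 341 and 313 CPM to 413, 486 and 398 CPM (0.42 ± 0.11, adjusted p = 0.0446). All 3 calls were also lost without any 1 of the ConvD libraries (adjusted p up to 0.171) and with the length trend removed (0.0656 to 0.0704), and Agxt2 and Uroc1 without GF 1 or GF 3.

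Immune genes held few calls between ConvD and GF livers. None of 32 acute phase genes was called, at a median of -0.08 (0.01 with the length trend removed). Saa2, of the serum amyloid A family, was read at 12.6, 5.03 and 6.48 against 4.25, 4.79 and 17.1 CPM (adjusted p = 0.947), while ConvR livers held 9887, 12793 and 695 CPM. Lcn2, lipocalin 2, stood at 1.93, 1.54 and 2.85 against 1.67, 1.31 and 4.60 CPM and at 1073, 1453 and 75.1 CPM in ConvR livers. The ConvR mice themselves differed in these genes, with ConvR 3 far below the other 2. ConvD 3 was the highest ConvD liver for Saa2 and Lcn2.

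Of 24 genes of microbial sensing and chemokines 1 rose and 2 fell, beside 2.25% and 3.34% of all genes. Tlr4, the receptor for bacterial lipopolysaccharide, rose from 1.58, 1.66 and 1.26 CPM to 2.20, 2.80 and 2.39 CPM (0.73 ± 0.18, adjusted p = 0.0336), a call lost without GF 1, GF 3 or any 1 of the ConvD libraries (up to 0.13) and with the length trend removed (0.0623). Tlr5, the flagellin receptor, lay higher in each ConvD liver at 12.8, 11.8 and 12.1 against 3.30, 7.88 and 6.91 CPM (1.004 ± 0.28, adjusted p = 0.0529). Cxcl1, a neutrophil-attracting chemokine, stood at 53.9, 12.8 and 3.77 against 1.13, 0.678 and 1.66 CPM (-4.34 ± 1.10, adjusted p = 0.0372), and at -2.84 without GF 1 (adjusted p = 0.161). ConvR livers held 133, 134 and 9.29 CPM of Cxcl1. Tnfaip3, a brake on NF-kappaB signalling, was called lower although GF 3 lay inside the ConvD range (55.5, 12.5 and 4.01 against 2.74, 2.304 and 4.55 CPM, adjusted p = 0.0282). Without GF 1 it stood at -1.35 (adjusted p = 0.1), and the calls of Cxcl1 and Tnfaip3 were lost without any 1 of the ConvD libraries too, that of Cxcl1 also with the length trend removed (0.0684).

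Among 29 interferon response genes Isg15, a ubiquitin-like modifier, was the only call, falling from 11.4, 8.63 and 15.1 CPM to 8.33, 6.10 and 7.38 CPM (-0.69 ± 0.19, adjusted p = 0.0483). The call held only without GF 2 among the leave-one-out fits (up to 0.169) and was lost with the length trend removed (0.177). Without GF 3 the value was -0.46. None of 9 MHC class II genes was called. Cd74, the invariant chain, stood at 110.3, 90.3 and 104 CPM in GF and 65.6, 64.2 and 167 CPM in ConvD livers, so that ConvD 3 exceeded and the other 2 lay below the GF range.

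Clock genes held 1 rise and 1 fall among 19, where 2.25% of all genes were called higher and 3.34% lower. The growth hormone list held 1 call. Clock, a core circadian activator, rose from 56.2, 63.0 and 63.0 CPM to 86.9, 81.0 and 78.5 CPM (0.43 ± 0.08, adjusted p = 0.0111), and stood at 0.29 with the length trend removed (0.0788). Cry2, a circadian repressor, fell from 28.7, 26.6 and 31.3 CPM to 15.2, 17.2 and 15.4 CPM (-0.86 ± 0.16, adjusted p = 0.0124). Both were lost without ConvD 1 (adjusted p = 0.0617 for each) and Cry2 also without ConvD 3. The other 17 of 19 tested clock genes were not called, among them Per1, at 35.0, 9.14 and 3.96 against 14.3, 16.9 and 17.2 CPM. Igfbp2, a binding protein of insulin-like growth factors, fell from 817, 481 and 390.3 CPM to 283, 302 and 235 CPM (-1.04 ± 0.27, adjusted p = 0.0378), and stood at -0.66 without GF 1 (0.131). It was the only call of 14 growth hormone and IGF genes and was lost without any 1 of the ConvD libraries and with the length trend removed (0.0694). None of 19 male-biased genes was called, nor any of 14 glucocorticoid response genes, 18 iron and metallothionein genes, 11 sterol efflux genes or 19 proliferation genes. Without GF 1 Angptl4, also a member of the glucocorticoid list, was its 1 call.

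Short housekeeping transcripts lay lower in ConvD livers, and their values moved with the length correction. Of 72 tested cytosolic ribosomal protein genes, with a median length of 706 bases, 29 fell and 0 rose, at a median of -0.32. Over all genes 3.34% were called lower. With the length trend removed 1 fell and the median was -0.12, and without GF 1 17 fell at a median of -0.23. Rps21 stood at 97.4, 87.2 and 92.2 against 55.1, 62.2 and 56.0 CPM (-0.68 ± 0.08, adjusted p = 0.00309), and at -0.33 with the length trend removed (0.0567). Of 56 respiratory chain subunits 7 fell and 0 rose (median -0.21), against 2 with the length trend removed (median -0.03) and 4 without GF 1 (median -0.17). Of 31 proteasome subunits 3 fell and 0 rose (median -0.17), against 1 with the length trend removed (median -0.06) and 1 without GF 1 (median -0.13). Atp5e and Ndufa2, of the ATP synthase and complex I, and Psmb4, a proteasome core subunit, were called with the length trend removed and whichever library was left out. With the length trend removed and GF 1 left out together, Atp5e and Ndufa2 were not called. Atp5e, Ndufa2 and Psmb4 also lost their calls with the 6 libraries alone and with the 9 chow libraries. Psmb4 fell from 151, 119 and 132 CPM to 85.1, 89.5 and 92.6 CPM (-0.59 ± 0.09, adjusted p = 0.0063), and by 0.40 with the length trend removed.

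**Figure D5:**
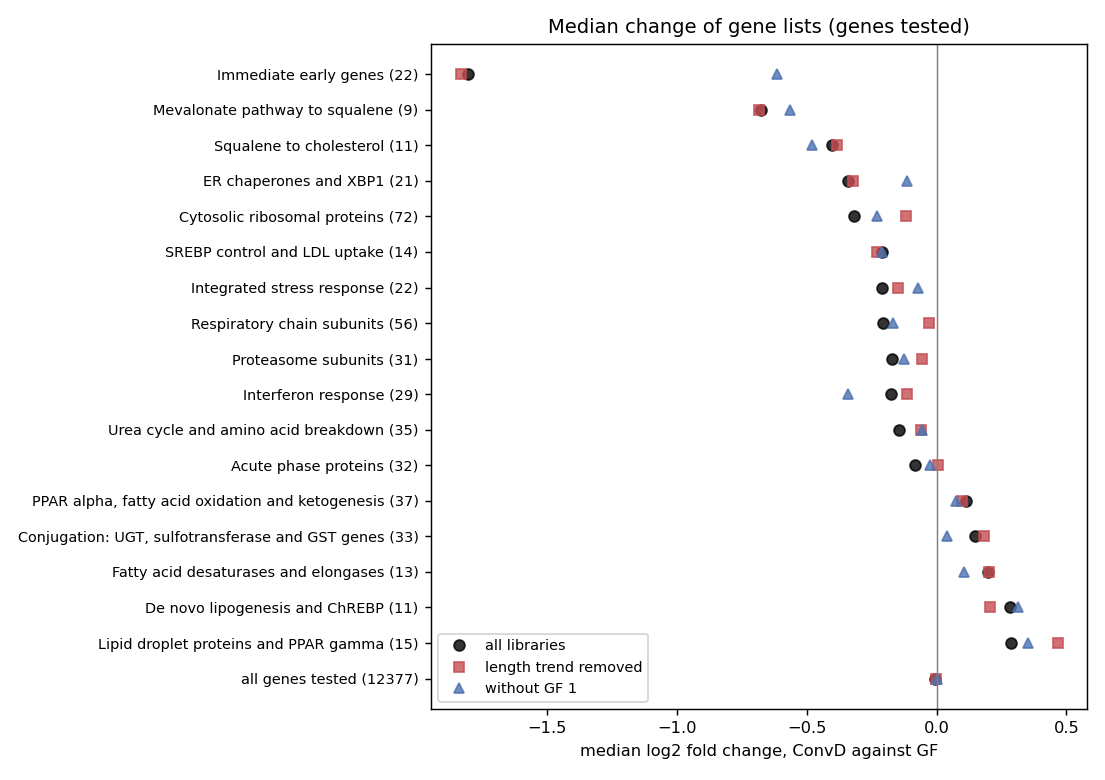
Median log2 fold change, ConvD against GF, of 17 gene lists and of all genes tested (number of tested genes in parentheses), with all libraries (circles), with the length trend removed from each library (squares) and without GF 1 (triangles). The cholesterol medians lie near -0.7 to -0.4 in each setting, whereas the ribosomal median moves to -0.12 with the length trend removed and the immediate early median to -0.61 without GF 1.

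Markers of liver cell types held few calls. In bulk tissue, fewer cells of a type and less RNA per cell cannot be told apart. Hepatocyte markers were high in all libraries and 0 of 8 were called, with Alb at 61670 to 69577 CPM in GF and 68916 to 84256 CPM in ConvD livers. None of 12 Kupffer cell markers, 7 markers of monocytes and recruited macrophages, 4 of neutrophils, 6 of T and NK cells, 5 of B and plasma cells, 10 of stellate cells and matrix or 5 of red blood cells was called. Kupffer cell markers summed to 441 to 572 CPM in GF and 439 to 662 CPM in ConvD livers. Among 8 endothelial markers Cdh5, VE-cadherin, rose from 25.1, 28.4 and 23.9 CPM to 34.2, 34.9 and 37.6 CPM (0.46 ± 0.10, adjusted p = 0.0219), a call lost without any 1 of the ConvD libraries (up to 0.0789).

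Cholangiocyte markers lay lower in ConvD livers. Krt19, a bile duct keratin, fell from 5.02, 2.11 and 1.21 CPM to 0.860, 0.859 and 1.11 CPM (-1.52 ± 0.41, adjusted p = 0.0453), the only call of 5 tested. It was highest in GF 1, stood at -0.80 without it (adjusted p = 0.148), and was also lost without any 1 of the ConvD libraries and with the length trend removed (0.0806). The summed markers of the list ran from 48.15 to 81.49 CPM in GF and 38.75 to 41.89 CPM in ConvD livers, and the part of bile duct content in other results was not tested. Cela1, a pancreatic elastase, fell from 41.2, 42.3 and 41.1 CPM to 18.6, 19.2 and 20.4 CPM (-1.10 ± 0.25, adjusted p = 0.0253), a call lost without any 1 of the ConvD libraries (up to 0.096). Prss2, Pnlip, Cpa1 and Amy2a5, the other digestive enzymes listed with Ctrb1, were at 0 CPM in all 6 libraries and Ctrb1 was at 0.0483 CPM in 1 of them. The adipocyte genes Lep, Plin1 and Retn were at 0 CPM, Adipoq was at most 0.114 CPM, and Cfd was at most 1.63 CPM.

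Set beside the conventionally raised livers, ConvD livers differed from ConvR livers in 681 genes (5.50%), 272 higher (2.20%) and 409 lower (3.30%). ConvR differed from GF livers in 584 genes (4.72%), 316 higher (2.55%) and 268 lower (2.17%). Of the 278 genes called higher in ConvD than in GF livers 68 were also called different between ConvD and ConvR livers, and of the 414 called lower 75 were. These comparisons share the ConvD libraries, and those of ConvR and ConvD with GF share the GF libraries. Cyp39a1, Csad and Plin4 had overlapping ranges in ConvD and ConvR livers, with ConvR against GF log2 fold changes of 2.14, 2.04 and 1.80 beside 2.02, 2.28 and 1.93 for ConvD. Scd1, Gm6484 and Cyp2c40 lay further from the GF level in ConvD than in ConvR livers, and each of the 3 differences between ConvD and ConvR was called.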

How the data were processed

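Liver mRNA of 15 mice in 5 groups of 3 was sequenced with a stranded Illumina kit, per the labels' protocols. The groups were GF, ConvR and ConvD on chow, and GF and ConvR on the HFHS diet. The authors estimated expected counts per gene with RSEM 1.2.23 and Bowtie2 on the mm9 build, per the submitters' processing notes, and deposited them beside TPM and FPKM. The deposited TPM values served as an alternative and the deposited FPKM values were not used. RSEM divides reads among similar genes, so that close paralogs are uncertain.

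Expected counts were rounded and CPM were computed with TMM factors. The main test was edgeR's quasi-likelihood test (edgeR 4.0.16, R 4.3.3), two-sided, over all 15 libraries with 1 mean per group, 10 residual degrees of freedom and filterByExpr at a minimum count of 10. P-values were adjusted by Benjamini-Hochberg over 12377 genes. A fold change is on the log2 scale with its standard error. Values named without GF 1 or any other library come from refits, and the length trend was removed per library with a lowess fit on log gene length. Alternatives used limma 3.58.1 and DESeq2 1.42.0. The scripts were tested on simulated data. Group and replicate came from sample titles. Mice were housed in groups and the labels do not say which shared a cage or litter. The p-values therefore measure only the spread between mice within the 5 groups, pooled, and not that of the GF and ConvD mice alone.

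Members and gene lists (40 pathway and 12 marker lists, 941 entries, 4 of them unmatched) were chosen with earlier results of these data known. Genes were named by rule: the 12 largest called changes each way with at least 2 CPM and no overlap, up to 8 called and 4 other members per list, and 9 genes whatever their result. Other genes named, among them Dusp6, Egr2, Cyr61, marker genes, members near the threshold and members called only under another setting, were chosen after their values were seen. Values of some single genes are not reported here. Each entry of the lists was matched by symbol, 13 by an older symbol. Depth limits the precision of genes of a few CPM, and 3 mice per group that of all others.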

Additional observations from a re-analysis of the deposited data

How the results depend on the processing

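Against 692 called genes, 278 higher and 414 lower, the counts moved by over 1.5 times under these settings. DESeq2's Wald test called 1164 (496 and 668). The 6 libraries alone gave 11 (3 and 8), the 9 chow libraries 39 (15 and 24), and a limit of at least 2-fold 88 (22 and 66). Removing the length trend gave 287 (120 and 167), and doing so without GF 1, an alternative chosen after seeing the data, 157 (59 and 98). TPM called 807 higher with either pseudocount, and 105 lower with a pseudocount of 1 or 101 with 0.1, and no normalization factors left 226 lower. Leaving out 1 of the 6 libraries gave 79 to 962 calls, 29 to 372 higher and 50 to 590 lower, with the fewest without ConvD 1 and the most without GF 2. The counts without ConvD 2 and 3 were 126 and 132, and without GF 1 it was 361. Of 73 named called genes followed over the settings, none reversed in a fit that tested it. Nkx2-1, Slc6a13, Nlrp6, F11, Mid1ip1 and Hist2h2aa2, named under other observations, were not among them. Of the 73, 73 were called with DESeq2 size factors, 39 with the length trend removed, 42 without GF 1, 24 without ConvD 1 and 9 with the 6 libraries alone. With the replicate block 489 genes were called, 200 higher and 289 lower. The numbers were not taken as pairs, since the deviations of GF and ConvD livers of the same number correlated at 0.108, 0.069 and 0.1. Each liver nevertheless correlated best with its own number, as a hint from the data. The cause of these shifts was not tested. Depth limits genes of few CPM, such as Fosb and Egr2, which were at 0 in some ConvD libraries.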

Other observations

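A small set of genes, 23 higher and 35 lower, was called whichever of the 6 libraries was left out and with the length trend removed. Of these, 18 and 24 lie outside the pathway lists, and the genes named here were chosen among them after their values were seen. Nkx2-1, a homeobox factor of lung and thyroid, was low but higher in ConvD livers, at 1.77, 1.76 and 2.05 CPM against 0.757, 0.514 and 0.338 CPM in GF livers (log2 fold change 1.83 ± 0.29, adjusted p = 0.0063). ConvR livers held 0.605, 0.422 and 0.663 CPM, so that the ConvD livers stood above both other groups (1.71 against ConvR, adjusted p = 0.00931). Lhx6, a LIM homeobox factor, rose from 1.31, 1.54 and 2.13 CPM to 5.43, 4.88 and 4.38 CPM (1.54 ± 0.27, adjusted p = 0.00924). Slc6a13, a hepatic carrier of GABA and taurine, rose from 147, 173 and 153 CPM to 237, 224 and 234 CPM (0.55 ± 0.08, adjusted p = 0.0063). Gm2a, the GM2 ganglioside activator, rose from 41.7, 68.3 and 58.6 CPM to 117, 123 and 111 CPM (1.05 ± 0.14, adjusted p = 0.00387). With the 6 libraries alone 3 genes were called higher, Cyp3a11, Csad and Plin4, and none of these rises was. Lhx6 was not called with the 9 chow libraries either.

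Among the falls, Nlrp6, an inflammasome sensor, went from 192, 151 and 182 CPM to 117, 103 and 109 CPM (-0.67 ± 0.11, adjusted p = 0.00809), and ConvR livers held 116, 102 and 132 CPM. F11, coagulation factor XI, fell from 112, 119 and 96.8 CPM to 60.5, 71.98 and 63.7 CPM (-0.74, adjusted p = 0.0063). Mid1ip1, which promotes acetyl-CoA carboxylase assembly, fell from 49.7, 70.7 and 61.1 CPM to 32.5, 30.0 and 27.0 CPM (-1.02, adjusted p = 0.00613). Hist2h2aa2, a histone H2A gene, fell from 28.4, 16.9 and 25.4 CPM to 4.03, 5.51 and 6.66 CPM (-2.12, adjusted p = 0.0063), and near-identical copies make its share of reads uncertain.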
